A study of Bos taurus with 18 samples.

Results

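The 8 genes described here encode enzymes that carry short-chain fatty acids into mitochondrial metabolism and on to ketone bodies. They are the acyl-CoA synthetases ACSS1 and ACSM3, the β-oxidation enzymes ACADS, ECHS1 and HADH, the thiolase ACAT1, the 3-hydroxybutyrate dehydrogenase BDH1 and the ketone-using transferase OXCT1. Their Ensembl identifiers are ENSBTAG00000004281 (ACSS1), ENSBTAG00000006447 (ACSM3), ENSBTAG00000007484 (ACADS), ENSBTAG00000017710 (ECHS1), ENSBTAG00000002049 (HADH), ENSBTAG00000012885 (ACAT1), ENSBTAG00000000448 (BDH1) and ENSBTAG00000033186 (OXCT1). They were taken by gene symbol from the deposited counts, where each symbol stood on 1 row, so all 8 of 8 were found among 27270 genes. All 8 passed the filter on low counts and were among the 22202 genes tested.

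Rumen papillae, the projections that line the rumen wall, came from 9 cannulated Holstein cows that were not lactating. Of these, 4 cows were given a supplement that the labels name only as PHY and 5 were controls, and every cow was sampled first on 100% forage and later on high grain, of which concentrate made up 65%. These 18 RNA-seq libraries made 4 groups, which were grain_PHY (n = 4), grain_control (n = 5), forage_PHY (n = 4) and forage_control (n = 5). The labels do not say what PHY is, whether it was fed during the forage period, or which libraries came from the same cow. Grain therefore always followed forage in time, and the diet and the sampling order cannot be told apart. Replicate numbers below follow the order of deposit and pair no libraries.

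Butyrate made by rumen microbes is taken up by the papillae and is a main fuel of the rumen epithelium. A synthetase first joins it to coenzyme A. ACADS, ECHS1 and HADH then act in turn on butyryl-CoA, crotonyl-CoA and 3-hydroxybutyryl-CoA to give acetoacetyl-CoA. ACAT1 converts acetoacetyl-CoA and acetyl-CoA into one another, further steps lead from there to acetoacetate, and BDH1 reduces acetoacetate to 3-hydroxybutyrate, which leaves in the blood. OXCT1 works in tissues that burn ketone bodies, where it returns acetoacetate to acetoacetyl-CoA. The rumen epithelium is known for a high rate of this ketone formation in adult ruminants.

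Library totals ran from 3953060 to 23949058 reads on grain and from 15808999 to 34471682 reads on forage. Reads on 144 olfactory receptor genes, normally silent outside the nose, moved the other way and summed to 32.9 to 345 CPM (counts scaled to all reads of the library) on grain, against 16.3 to 65.0 on forage. The 3 libraries with the fewest reads, grain_PHY 1, grain_control 1 and grain_control 4, were also the highest in these reads. The marker sums that follow are on another scale, CPM by edgeR's effective library size, and cannot be set directly beside the olfactory receptor sums. The 12 listed epithelial markers, keratins, desmosome and adhesion genes and TP63, were all present and summed to 6142 to 23710 CPM on grain (median 13260) and 12940 to 32260 CPM on forage (median 22360), with 5 of 12 lower and 2 higher on grain. Markers of leukocytes summed to 55.2 to 85.2 CPM on grain and 55.0 to 73.9 on forage, with 3 of 11 higher on grain, and those of fibroblasts to 444 to 1918 CPM and 185 to 2295 CPM, with none of 6 called. Those of red blood cells were higher in 2 of 4 tested genes (median log2 change 1.53), at 4.32 to 20.9 CPM on grain and 1.47 to 7.65 CPM on forage. Those of hepatocytes were higher in 1 of 4 (median 1.29), at 2.30 to 10.6 CPM on grain and 1.47 to 5.14 CPM on forage. Endothelial and smooth muscle markers had 0 of 5 called each. Calls are at an edgeR adjusted p under 0.05, where 13.8% of all genes tested were lower and 18.1% higher on grain. Among genes over 6 in mean log2 CPM 51.5% were lower, and genes between 0 and 1 had a median log2 change of 1.31. The median log2 change of the epithelial markers was −0.58. Of the 1312 genes over 6 in mean log2 CPM, 96.9% had a negative change (median −0.54). In these bulk samples cell number, RNA per cell and the composition of the libraries cannot be told apart. The part of these differences in the results below was not tested.

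The 8 genes fell into 2 classes of read abundance. Levels are given as CPM scaled to edgeR's effective library size, which differed from the total reads. It was 9232539 for the 3953060 reads of grain_PHY 1, 8272195 for the 5433497 of grain_control 1 and 10174838 for the 12477701 of grain_PHY 4. On forage it was 13254030 for the 18507152 reads of forage_control 1 and 16732543 for the 15808999 of forage_control 2. A size above the total lowers the CPM, so the levels and falls below depend on these sizes. By mean CPM over all 18 libraries HADH ranked 68 of 27270 genes, ACADS 106, BDH1 177, ACAT1 212 and ECHS1 305. Each of these 5 genes had more reads than 98.9% or more of all genes. OXCT1 ranked 9586, ACSS1 11244 and ACSM3 14439, with more reads than 64.8%, 58.8% and 47.0% of genes. A long transcript gives more reads than a short one, and transcript lengths were not used here, so these ranks order read numbers and not molecules.

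The 5 abundant genes kept a rank of 422 or better in every library. HADH ranked 49 to 91 over the 18 libraries, ACADS 76 to 190, BDH1 101 to 313, ACAT1 157 to 382 and ECHS1 220 to 422. By group means, HADH ranked 66 in grain_PHY, 72 in grain_control, 72 in forage_PHY and 62 in forage_control. BDH1 ranked 181 on grain and 169 on forage, ACADS 127 and 98, ACAT1 208 and 214, and ECHS1 320 and 296. The rank of ACADS was thus lower on grain, while that of ACAT1 was about the same on both diets.

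**Figure D1:**
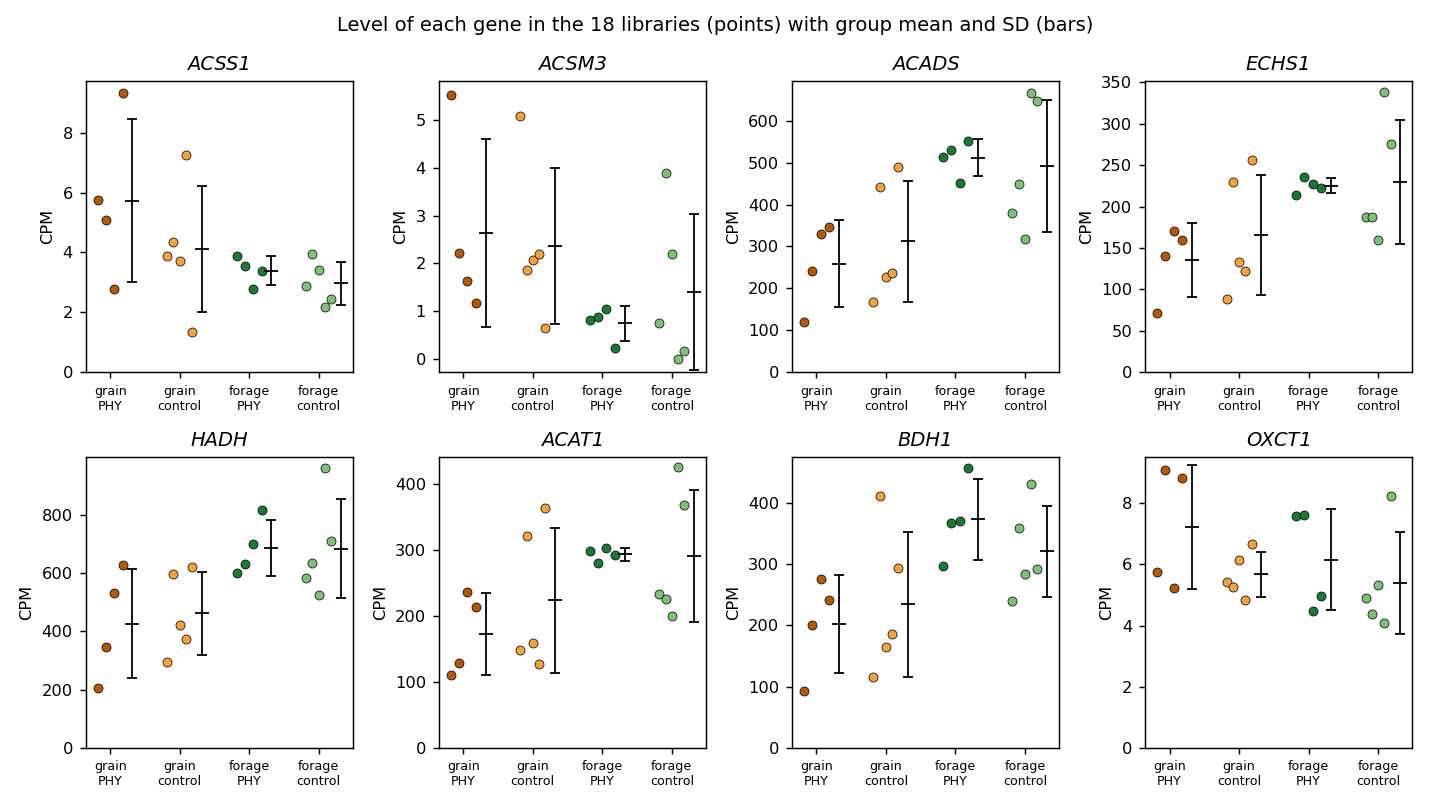
Level of each of the 8 genes in CPM (y axis, linear, a scale of its own in each panel) in the 18 libraries, by group (x axis); points are libraries, and the bar beside them is the group mean with its SD. The 5 abundant genes ACADS, ECHS1, HADH, ACAT1 and BDH1 stand lower in most grain libraries, grain_PHY 1 lowest of all, while ACSS1, ACSM3 and OXCT1 stay under 10 CPM throughout. CPM is scaled to edgeR's effective library size, and the lowest place of grain_PHY 1 depends on that scaling.

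The first question was how these genes differed with diet, taking PHY and control cows together. ACADS, which oxidises butyryl-CoA, fell to 289 ± 124 CPM on grain, against 502 ± 115 CPM on forage (SD, n = 9 each). BDH1, HADH and ECHS1 fell as well, by log2 changes between −0.60 and −0.67. ACAT1 stood at −0.57 ± 0.24 (SE) and did not pass. The synthetases ACSS1 and ACSM3 and the ketone-using OXCT1 had positive changes that did not pass in edgeR. In all, 4 of the 8 genes were lower and none higher at an edgeR adjusted p under 0.05, where 31.9% of all genes tested were called in either direction, 13.8% lower and 18.1% higher. DESeq2 called 6 of the 8, adding ACAT1 lower (−0.50, adjusted p = 0.0484) and ACSS1 higher (0.69, adjusted p = 0.0473), where it called 37.5% of all genes. Limma voom with quality weights also called 6, adding ACAT1 lower (−0.55, adjusted p = 0.0144) and ACSM3 higher (1.56, adjusted p = 0.0165), where it called 45.7% of all genes.

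The share of called genes depended on the level of the gene. Among the 1312 genes over 6 in mean log2 CPM, the range that holds the 5 abundant members, 51.5% were lower on grain, and 16 genes were higher. The 4 falls among 5 abundant members, and none among the 3 others, are therefore read against that share. The median log2 change was −0.59 over the 8 genes, which mix both levels, and 0.20 over all genes tested. Among the 5 abundant members the middle value was −0.63 (HADH), beside a median of −0.54 over the abundant genes of the whole table.

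ACADS had the largest fall of the 8. In PHY cows its level was 119, 241, 329.6 and 345 CPM on grain, against 515, 531, 452 and 552 CPM on forage. In control cows it was 166, 443, 226, 237 and 490.4 CPM on grain, against 381, 450.2, 318, 668 and 648 CPM on forage. All 4 grain libraries of PHY cows lay below all 4 forage libraries of PHY cows. The same held for 15.8% of all genes tested and 63.3% of those over 6 in mean log2 CPM. In control cows grain_control 2 and 5 lay within the forage range. The log2 change over both arms was −0.82 ± 0.25 (SE, edgeR adjusted p = 0.0246), which is 1.77-fold lower. The median change of the 121 genes between 8 and 9 in mean log2 CPM was −0.63, and 90% of them lay between −0.85 and −0.27, so ACADS stood near the lower end of genes of its own level.

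ECHS1 adds water to crotonyl-CoA. The grain_PHY libraries had 70.8, 141, 171 and 160.1 CPM of ECHS1, against 214, 236, 228 and 223 CPM in forage_PHY. The grain_control libraries had 87.9, 229.9, 133, 122 and 256 CPM, against 187, 187, 159.5, 338 and 276 CPM in forage_control. By effective library size, the forage_PHY libraries lay close together, and all grain_PHY libraries lay below them. The latter held for 63.3% of genes over 6 in mean log2 CPM. Over both arms ECHS1 averaged 152 ± 60.6 CPM on grain and 228 ± 53.4 CPM on forage (SD, n = 9 each), with a log2 change of −0.60 ± 0.23 (edgeR adjusted p = 0.0463). The 319 genes between 7 and 8 in mean log2 CPM had a median of −0.58.

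HADH, which oxidises 3-hydroxybutyryl-CoA and longer hydroxyacyl-CoA, had the most reads of the 8. HADH levels in PHY cows were 204, 346, 531 and 626 CPM on grain, against 599, 631, 700.3 and 817 CPM on forage. HADH levels in control cows were 295, 596, 421, 374 and 622 CPM on grain, against 584, 633, 525, 962 and 711 CPM on forage. The groups overlapped in both arms, through grain_PHY 4 in PHY cows and through grain_control 2 and 5 in control cows. HADH averaged 446 ± 154 CPM on grain and 685 ± 134 CPM on forage (SD, n = 9 each), a log2 change of −0.63 ± 0.23 (edgeR adjusted p = 0.0404). The median of the 45 genes of its level was −0.63.

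ACAT1, the mitochondrial acetoacetyl-CoA thiolase, did not pass the edgeR test over both arms. In PHY cows its level was 111, 129, 236 and 214 CPM on grain, against 299, 280.5, 304 and 292 CPM on forage. In control cows it was 149, 321, 158, 127 and 364 CPM on grain, against 234, 225, 201, 426 and 368 CPM on forage. By effective library size, all grain_PHY libraries were below all forage_PHY libraries, as in 63.3% of genes over 6 in mean log2 CPM. The control libraries split on each diet into 2 high and 3 low ones. ACAT1 averaged 201 ± 90.5 CPM on grain and 292 ± 70.9 CPM on forage (SD, n = 9 each). The log2 change was −0.57 ± 0.24 with a 95% interval of −1.06 to −0.086 (edgeR adjusted p = 0.0613), beside a median of −0.58 for genes of its level.

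BDH1 makes the last step to 3-hydroxybutyrate. The grain_PHY libraries had 92.3, 200.1, 276 and 242 CPM of BDH1, against 297, 368, 370.5 and 458 CPM in forage_PHY. The grain_control libraries had 116, 412, 165, 185 and 294 CPM, against 240.4, 359, 284, 431 and 292 CPM in forage_control. By effective library size, all grain libraries of PHY cows lay below their forage libraries, as in 63.3% of genes over 6 in mean log2 CPM. Grain and forage libraries overlapped in control cows, where grain_control 2 was above 4 of the 5 forage libraries. BDH1 averaged 220.3 ± 98.6 CPM on grain and 344 ± 71.8 CPM on forage (SD, n = 9 each), a log2 change of −0.67 ± 0.24 or 1.59-fold lower (edgeR adjusted p = 0.0409). Genes of its level had a median of −0.63.

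The 3 genes of few reads had positive changes, and none passed in edgeR. ACSM3, a mitochondrial acyl-CoA synthetase of the medium-chain family, had 0 to 65 reads in a library. ACSM3 levels in PHY cows were 5.52, 2.23, 1.62 and 1.18 CPM on grain, against 0.824, 0.873, 1.05 and 0.219 CPM on forage. ACSM3 levels in control cows were 5.08, 1.85, 2.06, 2.199 and 0.654 CPM on grain, against 0.754, 3.88, 2.2, 0 and 0.162 CPM on forage. The grain_PHY libraries lay above the forage_PHY libraries, as in 30% of genes between 0 and 1 in mean log2 CPM. The control groups overlapped. Its log2 change was 1.27 ± 0.62 (95% interval −0.0073 to 2.56, edgeR adjusted p = 0.101), and the 3427 genes between 0 and 1 in mean log2 CPM had a median of 1.31. On the same scale the mean olfactory receptor gene stood at 0.222 to 1.03 CPM in grain libraries and 0.124 to 0.477 CPM in forage libraries, and the part of such background reads in the ACSM3 values was not tested. Genes of the ACSM family resemble one another, so the split of reads between them is uncertain.

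ACSS1, which activates acetate in mitochondria, had 29 to 123 reads. In PHY cows its level was 5.74, 5.10, 2.77 and 9.34 CPM on grain, against 3.897, 3.55, 2.77 and 3.36 CPM on forage. In control cows it was 3.87, 4.36, 3.73, 7.26 and 1.35 CPM on grain, against 2.87, 3.94, 3.40, 2.17 and 2.46 CPM on forage. The groups overlapped in both arms, with grain_PHY 4 and grain_control 4 high and grain_control 5 lowest of all. Its log2 change was 0.61 ± 0.28 (95% interval 0.026 to 1.19, edgeR adjusted p = 0.0876). The 2772 genes between 2 and 3 in mean log2 CPM had a median of 0.072. ACSS1 lay at 2.03, near the lower edge of that range, and the 2833 genes between 1 and 2 had a median of 0.88.

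OXCT1, the enzyme of ketone body use, had 45 to 255 reads. The grain_PHY libraries had 5.74, 9.09, 5.23 and 8.85 CPM of OXCT1, against 7.57, 7.60, 4.49 and 4.97 CPM in forage_PHY. The grain_control libraries had 5.44, 5.27, 6.13, 4.84 and 6.68 CPM, against 4.90, 4.36, 5.33, 4.09 and 8.24 CPM in forage_control. Grain and forage libraries overlapped in both arms. Its log2 change was 0.15 ± 0.19 with a 95% interval of −0.25 to 0.55 (edgeR adjusted p = 0.53), within the spread between libraries.

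**Figure D2:**
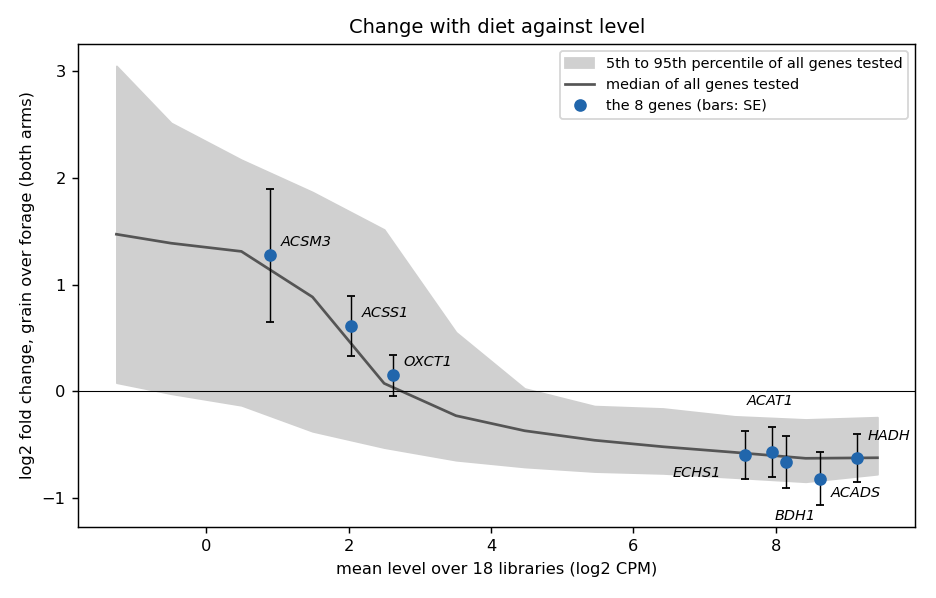
Log2 fold change, grain over forage over both arms (y axis), against mean level in log2 CPM over the 18 libraries (x axis); points are the 8 genes with SE, the line is the median of all genes tested in bins of level and the grey band their 5th to 95th percentile (bins of at least 20 genes). ACSM3, ACSS1 and OXCT1 lie on the left where the median gene was higher or near 0 and the 5 abundant genes on the right where it was lower, and all 8 lie inside the band.

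The edgeR calls over both arms depended on single libraries and on the libraries of low depth. Of all genes, 29.8% were called with DESeq2's size factors (3 of the 8), 25.7% without a low-count filter (3 of the 8) and 24.5% after thinning to the lowest total (ACADS lower and ACSM3 higher). Without grain_PHY 1 edgeR called 0 of the 8 genes (5 at an unadjusted p under 0.05), and without forage_PHY 1 it also called 0. Only ACADS was called without forage_control 4 or 5, forage_PHY 2, 3 or 4, grain_control 1, 3 or 4, or grain_PHY 2, and ACADS and BDH1 were called without forage_control 1. The number of all genes called moved as well, from 1 to 9587 with a single library left out, against 7091 with all libraries. Without grain_PHY 1 ACADS was at −0.66 (edgeR adjusted p = 0.0687), BDH1 at −0.51 (0.11), HADH at −0.47 (0.102) and ECHS1 at −0.45 (0.127). ACADS was at −0.83 without forage_PHY 1 (edgeR adjusted p = 0.0502). Without the 3 libraries of fewest reads, all from grain, ACADS stood at −0.51 ± 0.19, BDH1 at −0.36 ± 0.18, HADH at −0.35 ± 0.16 and ECHS1 at −0.30 ± 0.17, with 0 calls (2 of the 8 at an unadjusted p under 0.05).

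Set against olfactory receptor reads or against other abundant genes, the falls were smaller. With log2 olfactory receptor CPM as a covariate, ACADS was at −0.11 ± 0.17, BDH1 at −0.16 ± 0.23, HADH at −0.059 ± 0.17, ECHS1 at 0.079 ± 0.16, ACAT1 at 0.070 ± 0.19 and ACSM3 at −0.41 ± 0.55, and edgeR called 0 of the 8 (0 at an unadjusted p under 0.05). In a fit of only the genes over 6 in mean log2 CPM, scaled to their own totals, ACADS was at −0.32 ± 0.12 (edgeR adjusted p = 0.144), BDH1 at −0.19 ± 0.17, HADH at −0.11 ± 0.12, ECHS1 at −0.076 ± 0.10 and ACAT1 at −0.025 ± 0.14. In that fit none of the 5 passed, 1 had an unadjusted p under 0.05, and 38 of the 1312 genes were called.

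In PHY cows alone none of the 8 genes passed the edgeR test of grain against forage, where 0% of all genes tested were called (8820 at an unadjusted p under 0.05) and 4 of the 8 had an unadjusted p under 0.05. ACADS stood at −0.99 ± 0.37 (adjusted p = 0.0777), BDH1 at −0.88 ± 0.36 (0.0905), ACAT1 at −0.77 ± 0.35 (0.113) and ECHS1 at −0.73 ± 0.34 (0.115). In these 4 all grain_PHY libraries lay below all forage_PHY libraries, as in 15.8% of all genes tested and 63.3% of genes over 6 in mean log2 CPM. In ACSM3 they all lay above, as in 14.2% of all genes tested and 30% of the genes between 0 and 1 in mean log2 CPM. Both hold for CPM by effective library size. Per total reads the groups overlapped for BDH1, ACAT1 and ECHS1 but not for ACADS. ACAT1 had 1025 of 3953060 reads in grain_PHY 1 and 3996 of 18655841 in forage_PHY 4. BDH1 had 4592 of 15474334 reads in grain_PHY 3 and 9367 of 32030288 in forage_PHY 1. ECHS1 had 2845 of 15474334 reads in grain_PHY 3 and 3045 of 18655841 in forage_PHY 4. HADH stood at −0.69 ± 0.34, OXCT1 at 0.22 ± 0.29, ACSS1 at 0.75 ± 0.42 and ACSM3 at 1.80 ± 0.94. DESeq2 called ACADS in PHY cows (−0.89, adjusted p = 0.036) and 22.6% of all genes. Limma voom with quality weights called ACADS, BDH1 and ECHS1 lower and 35.7% of all genes. The edgeR fit of the groups compared alone called ACSM3 higher and 24% of all genes.

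In control cows the same comparison called 0% of all genes (2518 at an unadjusted p under 0.05) and 0 of the 8 in edgeR, with 0 of the 8 at an unadjusted p under 0.05 (DESeq2 and limma voom also called none of the 8). ACADS stood at −0.66 ± 0.33 (edgeR adjusted p = 0.432), HADH at −0.57 ± 0.30 (0.432), ECHS1 at −0.47 ± 0.30, BDH1 at −0.45 ± 0.32 and ACAT1 at −0.38 ± 0.31. ACSS1 was at 0.47 ± 0.38, ACSM3 at 0.75 ± 0.82 and OXCT1 at 0.073 ± 0.26. In CPM by effective library size, grain_control 2 and 5, with 23949058 and 20825008 reads, had the highest grain levels of ACADS, ECHS1, ACAT1 and BDH1. On that scale grain_control 1, the shallowest of the arm, had the lowest levels of ACADS, ECHS1, HADH and BDH1.

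No difference between the diet responses of PHY and control cows passed its own test. The difference, PHY minus control, called 0% of all genes and none of the 8 in edgeR (smallest adjusted p 0.954; 442 of all genes at an unadjusted p under 0.05), none with an unadjusted p under 0.05 and none in DESeq2 or limma voom. It was −0.43 ± 0.48 for BDH1 with a 95% interval of −1.42 to 0.57, −0.39 ± 0.47 for ACAT1 (−1.36 to 0.58), −0.33 ± 0.49 for ACADS (−1.34 to 0.68), −0.26 ± 0.45 for ECHS1 (−1.19 to 0.67) and −0.12 ± 0.45 for HADH (−1.05 to 0.81). For OXCT1 it was 0.15 ± 0.39, for ACSS1 0.28 ± 0.57 and for ACSM3 1.04 ± 1.23. Differences of the size of the diet effect itself lie within these intervals.

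**Figure D3:**
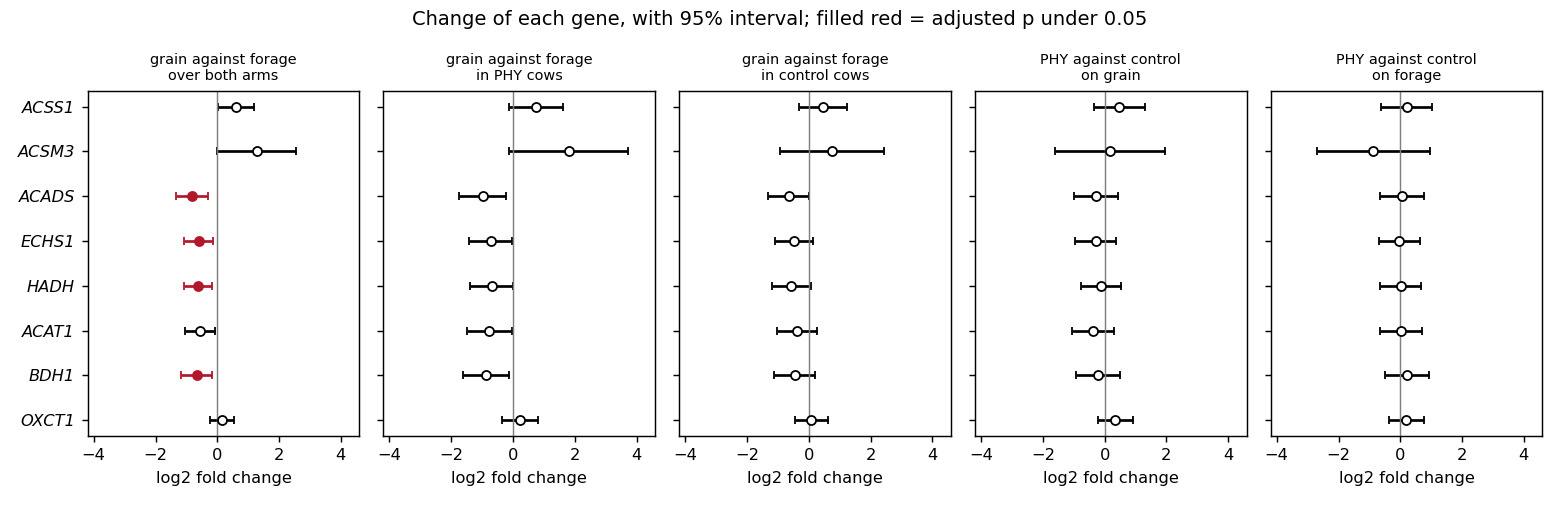
Log2 fold change (x axis) of each of the 8 genes (rows) with its 95% interval in 5 comparisons (panels), with filled red points for an edgeR adjusted p under 0.05. Filled points occur only in the panel over both arms, for ACADS, ECHS1, HADH and BDH1, and all intervals in the PHY against control panels include 0.

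The other question was whether PHY changed these genes within a diet. On grain, PHY against control called 0% of all genes in edgeR (571 at an unadjusted p under 0.05) and 0 of the 8 (none with an unadjusted p under 0.05, and none by DESeq2 or limma voom). BDH1 averaged 202 ± 79.8 CPM (SD, n = 4) in grain_PHY and 234 ± 119 CPM (n = 5) in grain_control, with a log2 change of −0.21 ± 0.34 and a 95% interval of −0.92 to 0.49. ACADS averaged 259 ± 104 and 312 ± 144 CPM in the same groups (−0.27 ± 0.35, interval −0.99 to 0.44). The change was −0.37 ± 0.34 for ACAT1, −0.29 ± 0.32 for ECHS1 and −0.11 ± 0.32 for HADH. It was 0.48 ± 0.40 for ACSS1, 0.34 ± 0.28 for OXCT1 and 0.17 ± 0.86 for ACSM3. The median over the 8 was −0.16, beside 0.0097 for all genes. Among the 5 abundant members the middle value was −0.27 (ACADS), beside a median of −0.19 for genes over 6 in mean log2 CPM.

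On forage, PHY against control also called 0% of all genes in edgeR (356 at an unadjusted p under 0.05) and 0 of the 8 (none with an unadjusted p under 0.05, and none by DESeq2 or limma voom). ACAT1 averaged 294 ± 10.1 CPM (SD, n = 4) in forage_PHY and 291 ± 99.9 CPM (n = 5) in forage_control, with a 95% interval of the log2 change of −0.67 to 0.70. ECHS1 averaged 225 ± 9.04 and 229.7 ± 75.0 CPM in these groups, with an interval of −0.69 to 0.63. The 5 control libraries spread more widely than the 4 PHY libraries for both genes, with forage_control 4 and 5 high and the other three low. ACSM3 stood at −0.88 ± 0.89, with an interval of −2.70 to 0.95, and at −0.0077 without forage_control 2. The difference of BDH1 was 0.22 ± 0.34.

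Ordered by group mean, BDH1, HADH, ACAT1 and ACADS stood highest in forage_PHY, then forage_control, then grain_control, and lowest in grain_PHY. ECHS1 had the same order but for the forage groups, with 225 ± 9.04 CPM in forage_PHY below 229.7 ± 75.0 CPM in forage_control. Neighbours on the same diet differed by less than the larger SD of the pair for all 5 genes. Summed over the 8 genes, the level was 1212 ± 465 CPM in grain_PHY (n = 4), 1410 ± 570.5 in grain_control (n = 5), 2102 ± 176 in forage_PHY (n = 4) and 2028 ± 544 in forage_control (n = 5, SD). Scaled to effective library size, the lowest sum was 614 CPM in grain_PHY 1 and the highest 2831 CPM in forage_control 4.

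Across libraries the 5 abundant genes lay closer to one another than to the 3 others. As a description, likeness was taken as the root mean square difference of log2 CPM over the 18 libraries after each gene was centred on its own mean. The 10 pairs of abundant genes lay between 0.169 (ACADS and ECHS1) and 0.341 (BDH1 and ACAT1), while OXCT1 and ACSS1 were 0.617 apart and ACSM3 at least 1.24 from every other member. All pairs share the libraries' depth and composition, whose part was not tested. The median difference from the 3040 genes that averaged 30 CPM or more was 0.322 for ECHS1 and 0.439 for BDH1. For the genes of few reads it was larger, 0.557 for OXCT1, 0.918 for ACSS1 and 1.8 for ACSM3. The part of counting error in these distances was not tested.

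The genes closest to each member in this measure, among those 3040, were PAPSS2 (0.146) and PSAP (0.157) for ACADS, SUCLG2 (0.0969) and HSD17B13 (0.114) for ECHS1, PCCA (0.122) and ZNF185 (0.122) for HADH and ACSF2 (0.147) and FH (0.173) for ACAT1. BDH1 was closest to EGFR (0.194) and DHRS7 (0.207). OXCT1 was closest to SERPINH1 (0.257) and COL5A2 (0.284) and ACSS1 to PDE4DIP (0.433) and MYH10 (0.572), at larger distances. The nearest to ACSM3 were FBXO16 (0.694) and a gene listed as 5S_rRNA (0.875).

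Genes of related pathways were tested beside the 8. Of 6 other synthetases that activate short- and medium-chain acids, 4 rose and 1 fell, where 18.1% of all genes were higher and 13.8% lower. ACSS2, the cytosolic acetyl-CoA synthetase, fell to 32.4 ± 9.23 CPM on grain, against 45.8 ± 5.96 CPM on forage (SD, n = 9 each; log2 change −0.53 ± 0.16, edgeR adjusted p = 0.0257). ACSS3, a mitochondrial relative known to act on propionate, was higher at 4.05 ± 2.86 CPM on grain and 1.13 ± 1.05 CPM on forage (1.95 ± 0.48). ACSM2B, of the same family as ACSM3, was at 6.02 ± 3.55 CPM on grain and 2.29 ± 2.0 CPM on forage (1.46 ± 0.46). The 4 that rose had few reads, and the share of genes called higher was 36.3% between 0 and 1 in mean log2 CPM (ACSM4), 40.3% between 1 and 2 (ACSS3 and ACSM5) and 18.7% between 2 and 3 (ACSM2B). ACSS3 stood above the 95th percentile of its range (1.87), and ACSM2B near that of its own (1.52), whose median was 0.072. ACSM2B lay at 2.08 in mean log2 CPM, near the lower edge of its range. The genes between 1 and 2 had a median of 0.88.

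Of 22 other genes of mitochondrial fatty acid oxidation 13 fell and none rose (median −0.52), beside 13.8% of all genes and 51.5% of genes over 6 in mean log2 CPM, where 8 of the 22 lay. The smallest p were those of HSD17B10 (−0.58 ± 0.15) and ECHDC2 (−0.54 ± 0.16). Of 9 carriers of ketone bodies and short-chain acids 1 rose and 1 fell. The sodium-coupled carrier SLC5A8 rose (1.76 ± 0.49, at 2.30 ± 0.990 CPM on grain and 0.716 ± 0.529 CPM on forage). BSG, the partner protein of monocarboxylate transporters, fell (−0.67 ± 0.24). Of genes of the level of SLC5A8 36.3% were higher (median 1.31), and of those of the level of BSG 44.4% were lower (median −0.63). SLC16A1, a transporter of butyrate and ketone bodies, averaged 709.8 ± 221 CPM on grain and 918 ± 161 CPM on forage (SD, n = 9 each), with a change of −0.41 ± 0.21 that did not pass (edgeR adjusted p = 0.114). Of 13 regulators 4 fell and 2 rose, beside the same shares of 13.8% lower and 18.1% higher among all genes. At the levels of the 2 that rose, 18.7% (PPARGC1A) and 21.3% (FGF21) of genes were higher, and at that of PPARD and RXRA 53.1% were lower. FGF21 had 0 to 23 reads in a library. Its grain mean of 0.923 CPM lay within the 0.222 to 1.03 CPM of the mean olfactory receptor gene in grain libraries. The part of background reads in the FGF21 values was not tested. The nuclear receptors PPARD (−0.90 ± 0.21) and RXRA (−0.69 ± 0.19) fell, the coactivator PPARGC1A (1.44 ± 0.43) and the hormone FGF21 (2.06 ± 0.72) rose, at 6.12 ± 3.47 and 0.923 ± 0.773 CPM on grain and 2.52 ± 2.28 and 0.208 ± 0.154 CPM on forage, and PPARA, which drives ketogenic genes in liver, stood at −0.45 ± 0.19 (adjusted p = 0.0627).

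None of these list genes was called without grain_PHY 1, without the 3 libraries of fewest reads or with the olfactory receptor covariate. Under these settings edgeR called 1, 0 and 0 of all genes tested (8019, 4136 and 1032 at an unadjusted p under 0.05). In the fit of only genes over 6 in mean log2 CPM, 1 of 6 regulators was called lower and 0 of 8 fatty acid oxidation genes and 0 of 2 carriers (1 and 0 at an unadjusted p under 0.05). With the covariate the median change was −0.22 for the other synthetases and −0.025 for the other fatty acid oxidation genes.

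**Figure D4:**
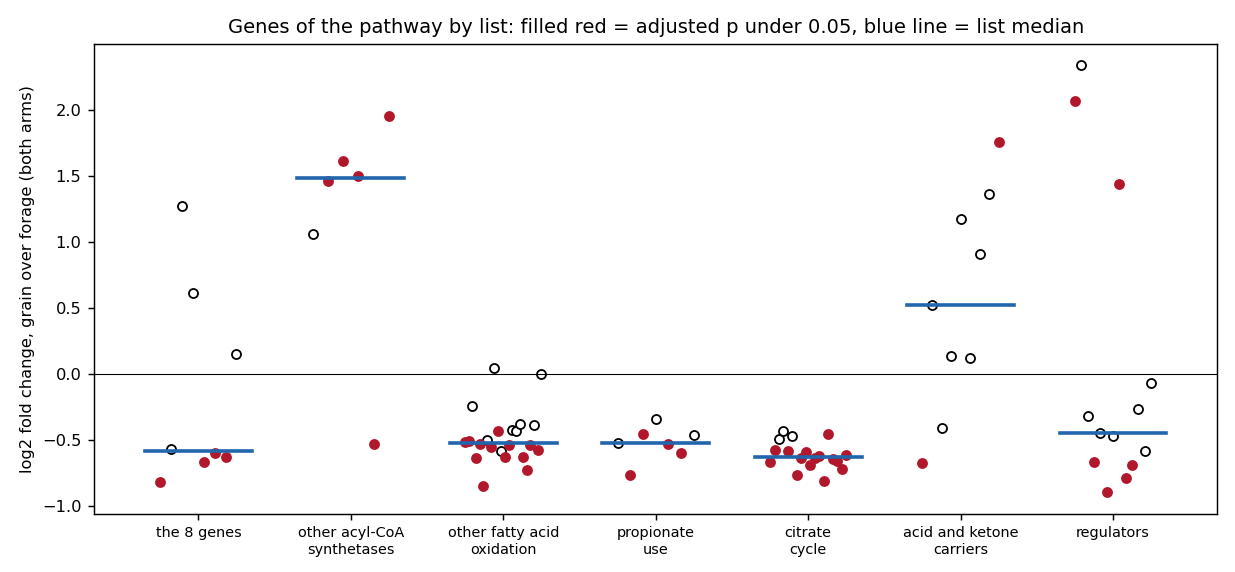
Log2 fold change, grain over forage over both arms (y axis), of the 8 genes and of the genes of 6 related lists (x axis), with filled red points for an edgeR adjusted p under 0.05 and a blue line at each list's median. The fatty acid oxidation, propionate and citrate cycle lists lie mostly below 0, and the other acyl-CoA synthetases, but for ACSS2, above it.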

How the data were processed

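RNA-seq read counts were compared between 18 libraries of rumen papillae. Libraries were made from total RNA with a stranded kit, per the labels' protocols. The deposited table holds whole-number read counts per Ensembl gene. The tools named include bcl2fastq 2.20 and the build named is bosTau9, per the submitters' processing notes. No aligner, counter, annotation or strand setting is named in the labels or headers, so overlapping or antisense genes could share reads. A second deposited table, of normalized signal, equals these counts over 1 factor per library (largest deviation 3.9e-08 reads) and was not tested.

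The counts of all genes were fitted with edgeR 4.0.16 (R 4.3.3; filterByExpr by group, TMM, robust quasi-likelihood F test, 1 mean per group, no cow term, as cows are not named per library). P-values were adjusted by Benjamini-Hochberg over the 22202 genes of a contrast and called under 0.05; intervals are 95%. P-values measure the spread between libraries. The group sizes equal the cow numbers, each cow gave a forage and a grain library, and the fit treats all libraries as independent. CPM uses reads of tested genes times the TMM factor; log2 CPM for likeness had a prior count of 2. The fit was tested on simulated data. These had independent libraries and as many rises as falls, so they cannot show how the fit handles shared cows or a shift with level.

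Named were the 8 members, the called list genes with the 2 smallest p per direction, preset genes and the 2 most alike genes per member. The members and lists were chosen with earlier results of these data known. Some genes of the pathway are not reported here. Of the listed genes, ACSM2A, ACSM6, ETFB, HCAR2 and the symbol MUT (MMUT was used) are not analysed here. Alternatives used DESeq2 1.42.0, limma 3.58.1 and the settings in the closing section. Outliers were sought in 36 sets of member values and none was found. Ranks per coding length were not computed, as no transcript lengths were used here.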

Additional observations from a re-analysis of the deposited data

How the results depend on the processing

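The number of the 8 genes called over both arms, 4 with edgeR, was 3 with DESeq2's size factors, 3 without a low-count filter, 6 with DESeq2 (5 lower, ACSS1 higher) and 6 with limma voom with quality weights (5 lower, ACSM3 higher). It was 0 with the olfactory receptor covariate, 0 without the 3 libraries of fewest reads, 2 after thinning every library to the lowest total (ACADS lower and ACSM3 higher) and 0 of 5 in the fit of abundant genes only, which was chosen after seeing the data and has fewer genes. Leaving out single libraries gave 0 to 6, with 1 to 9587 of all genes called. Why the counts fell was not tested. In PHY cows, where edgeR called 0, the count was 1 with DESeq2, 3 with limma voom and 1 with only the groups compared. The count stayed 0 in control cows, for PHY against control on either diet and for the difference of diet responses under every alternative run. Of the single-gene values under all alternatives, 1113 kept their direction and side of the threshold, 53 lost a call, 17 gained one and 79 changed sign, these with adjusted p-values of 0.93 or more. The median log2 change of all genes over both arms was 0.20 with TMM, 0.29 with DESeq2's size factors and 0.028 with the covariate.

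Sign changes of single genes are listed by setting. With the olfactory receptor covariate, the sign changed for ACAT1 at 0.070, ECHS1 at 0.079 and ACSM3 at −0.41 (over both arms), ACAT1 at 0.076, ECHS1 at 0.013 and ACSM3 at −0.028 (in control cows), ACAT1 at 0.064, HADH at 0.024, ECHS1 at 0.15 and ACSM3 at −0.79 (in PHY cows), ACAT1 at −0.087, ACADS at −0.10, HADH at −0.12 and ACSM3 at 0.25 (PHY on forage), HADH at 0.044 and ACSM3 at −0.51 (PHY on grain), ACADS at 0.070, HADH at 0.17, ECHS1 at 0.13 and ACSM3 at −0.76 (difference of responses). In the fit of abundant genes only, the sign changed for ACAT1 at 0.0077 (in control cows), ACAT1 at −0.068, ACADS at −0.036 and HADH at −0.10 (PHY on forage), HADH at 0.035 (PHY on grain), HADH at 0.13 and ECHS1 at 0.052 (difference of responses). With limma voom, the sign changed for ECHS1 at 0.15 and ACSM3 at 0.55 (PHY on forage), BDH1 at 0.26, ACAT1 at 0.14, ACADS at 0.17, HADH at 0.14, ECHS1 at 0.10, ACSS1 at −0.059 and ACSM3 at −0.12 (PHY on grain), OXCT1 at −0.13, HADH at 0.00064, ACSS1 at −0.31 and ACSM3 at −0.68 (difference of responses). With DESeq2's size factors, the sign changed for ACAT1 at −0.015 and HADH at −0.026 (PHY on forage). With DESeq2, the sign changed for ACAT1 at −0.015 and HADH at −0.026 (PHY on forage). With only the groups compared, the sign changed for ACAT1 at −0.047, ACADS at −0.011 and HADH at −0.060 (PHY on forage). Without the 3 libraries of fewest reads, the sign changed for ACAT1 at −0.036 and HADH at −0.045 (PHY on forage). Thinned to the lowest total, the sign changed for OXCT1 at −0.15 and HADH at −0.015 (PHY on forage). When single libraries were left out, the sign changed in at least 1 case for OXCT1 (−0.014 to 0.28) in control cows; ACAT1 (−0.093 to 0.19), ACADS (−0.066 to 0.19), HADH (−0.084 to 0.16) and ECHS1 (−0.14 to 0.15) for PHY on forage; BDH1 (−0.40 to 0.072), HADH (−0.36 to 0.10) and ACSM3 (−0.47 to 0.65) for PHY on grain; OXCT1 (−0.061 to 0.27), HADH (−0.37 to 0.13) and ACSS1 (−0.074 to 0.59) for the difference of responses.

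No paired analysis was possible because the labels give no replicate number or cow that libraries share. Ranking by reads per coding length was not run, since no lengths were used here. Depth limits ACSM3, ACSS1 and OXCT1 most, with at most 65, 123 and 255 reads in a library, and intervals between libraries include this counting error.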

Other observations

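Transcripts of the enzymes next to ketone formation in the mitochondria stood lower on grain, as did most abundant genes. The median log2 change of all genes over 6 in mean log2 CPM was −0.54. Of 18 citrate cycle genes 15 fell and none rose, with a median log2 change of −0.63. The succinate dehydrogenase subunit SDHB fell to 73.6 ± 27.8 CPM on grain, against 127 ± 29.6 CPM on forage (SD, n = 9 each; −0.81 ± 0.22, edgeR adjusted p = 0.0217), and SUCLA2, of succinyl-CoA synthetase, was at −0.66 ± 0.18. Of 7 genes of propionate use 4 fell and none rose (median −0.52), such as MCEE, the methylmalonyl-CoA epimerase (−0.77 ± 0.22), and MMAA, which serves the cobalamin cofactor of methylmalonyl-CoA mutase (−0.45 ± 0.14). Of these lists 10 of 18 and 4 of 7 genes were over 6 in mean log2 CPM, where 51.5% of all genes were lower, beside 13.8% of all genes tested. Without grain_PHY 1 edgeR called 0 of these genes (15 and 4 at an unadjusted p under 0.05), and the medians were −0.48 for the citrate cycle and −0.41 for propionate use. They were −0.36 and −0.27 without the 3 libraries of fewest reads, −0.0022 and −0.017 with the olfactory receptor covariate, and −0.098 and 0.0060 in the fit of only genes over 6 in mean log2 CPM, with 0 calls in each (11 and 3, 0 and 0, and 1 and 0 genes at an unadjusted p under 0.05).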
